A study of Mus musculus with 4 samples.

Results

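The transcripts of the normal atrioventricular canal were read from the control channel of 4 two-colour arrays. Each array carried RNA of 1 pool of wild type control canals, labelled with the green dye Cy3, so there were 4 control pools of the 8 pools in the series. The other channel of each array carried a pool of Tbx3 mutant canals labelled with Cy5, and it is used here for 1 comparison only. All 8 pools came from mouse hearts at embryonic stage E10.5, on a background of 50% Sv129 and 50% C57Bl6. Per the labels, the canal was micro-dissected by hand, pieces from 5 hearts were pooled per sample, and the RNA was amplified linearly before labelling. A pool is therefore an average of 5 hearts and of every cell type in the piece, and the boundary of the cut can differ between pools. The labels call the 4 pools biological replicates. They do not name litters. Members were the genes detected on every control array, meaning that a probe of the gene was well above the local background, by the flag of the scanner software, in the Cy3 channel of all 4 arrays. Of 19512 genes that the array's probes could be tied to by name, 14296 met this rule, which is 73.3%. A stricter reading that also asked for a scaled signal of at least 128 in every pool, added after the data were seen, kept 11304 genes, or 57.9%. All levels below are log2 of the background-subtracted Cy3 signal after the arrays were scaled to an equal median. The lowest value a probe can take is 4, the log2 of the floor of 16. Different probes bind their targets with different strength, so levels are compared between pools for 1 gene and not between genes.

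The atrioventricular canal is the segment of the looped heart tube between the forming atria and ventricles. Its myocardium conducts slowly because T-box repressors, Tbx2 and Tbx3, keep the working programme of the chambers off there, downstream of Bmp2. Bmp2 and transforming growth factor beta signals from that myocardium make endocardial cells leave the lining and fill the cushions with mesenchyme, the precursor of the valves and septa. A dissected canal therefore holds cardiomyocytes, endocardium, cushion mesenchyme, the covering epicardium and the blood in the lumen.

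The 4 arrays were read at similar depth. Between 27368 and 27919 of 41174 probes (66.5% to 67.8%) were well above background per pool, no green spot was saturated, and the number of arrays limits the precision. Pool 2 stood apart from the rest. The Pearson correlation over the 14291 genes whose best probe was detected, as a description across genes that share arrays and scaling, was 0.972 to 0.974 between pool 2 and each other pool and 0.993 to 0.997 among pools 1, 3 and 4. In pool 2, 690 of 15069 genes well above background there were at least 2-fold above every other pool, which is 4.58%. The same count was 19 genes in pool 1 (0.129%), 6 in pool 3 (0.0404%) and 17 in pool 4 (0.112%). In the other direction, 28 genes (0.195%) were at least 2-fold below every other pool in pool 2, 13 (0.09%) in pool 1, 1 (0.00696%) in pool 3 and 17 (0.119%) in pool 4. The 690 genes included hormone-responsive, stromal, natural killer cell and histocompatibility transcripts, and they are described after the canal's own genes. Values of pool 2 are given throughout, and summaries are given with and without it. Without pool 2, 14399 genes were detected on the remaining 3 arrays.

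The genes that define the labelled tissue were detected in every pool. Tbx3, the T-box repressor of the conduction system and the gene mutated in the other channel's hearts, read 13.58, 13.55, 13.73 and 13.56 in pools 1 to 4. Its 4 values lay close together, pool 2 being the lowest by a small margin, with an SD of 0.09 over pools 1, 3 and 4 (n = 3). Tbx2, the second canal repressor, read 10.87, 10.65, 11.18 and 10.94, with an SD of 0.17 over the same 3 pools. Bmp2, the signal that induces both repressors and the cushions, read 10.67, 10.29, 11.03 and 11.11, and its SD was 0.23. For Tbx2 and Bmp2 pool 2 was the lowest pool, by less than 2-fold. The Tbx3 probe lay at chr5:118918450-118918509, the Tbx2 probe at chr11:85910900-85910959 and the Bmp2 probe at chr2:133302098-133302157 in the mouse build mm7 given by the files. Gene models of mm7 were not used here, and the part of the transcript that a probe covers is therefore not stated.

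Markers of the other cell types of the canal were as clear. Myl7, the atrial and embryonic regulatory light chain of the sarcomere, read 16.55, 15.75, 16.36 and 16.21, with pool 2 lowest. Myh7, the beta heavy chain, read 16.20, 16.18, 16.14 and 16.34, with pool 3 lowest and pool 4 highest. A second Myh7 probe read 15.90, 16.09, 16.14 and 16.38, with pool 1 lowest and pool 4 highest. Nfatc1, a transcription factor of the endocardium, read 10.65, 10.22, 10.45 and 10.45. Postn, a matrix protein of cushion mesenchyme, read 13.26, 14.58, 13.65 and 13.42. Pool 2 was the highest pool for Postn, 1.91-fold over the next, while pools 1, 3 and 4 spanned 1.31-fold. A second, dim Postn probe read 4.79, 4.72, 5.19 and 5.09 and did not have pool 2 highest.

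**Figure D1:**
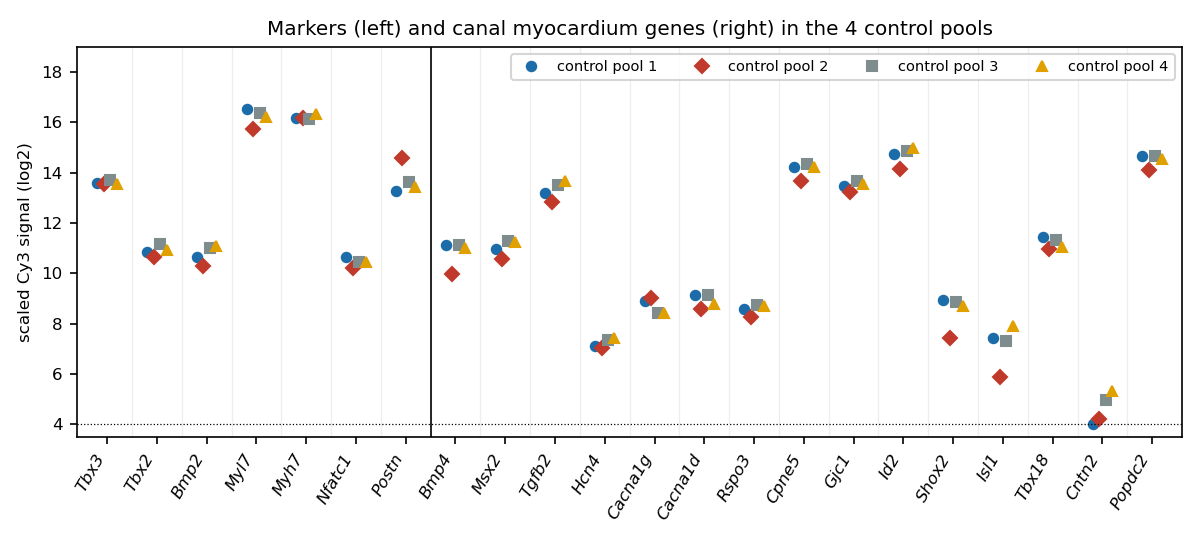
Scaled Cy3 signal on a log2 axis for the 7 markers (left of the line) and the other genes of the canal myocardium list (right), with 1 symbol for each of the 4 control pools and a dotted line at the floor of 4. Most genes have their 4 pools close together; Postn is highest in pool 2 (14.58), and Bmp4, Shox2 and Isl1 are lowest in pool 2.

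In the canal myocardium list 17 of 18 genes were detected, against 73.3% of all genes, and 16 of 18 also passed the signal of 128. Ligands came first. Bmp4, a sister ligand of Bmp2, read 11.15, 9.96, 11.14 and 11.02, and Tgfb2, the growth factor of canal myocardium and cushion, read 13.18, 12.84, 13.5 and 13.66. Rspo3, which amplifies Wnt signalling, read 8.58, 8.28, 8.76 and 8.72. Bmp4 was 2.09-fold lower in pool 2 than in the lowest other pool, and the other 3 pools spanned 1.09-fold. Tgfb2 and Rspo3 had pool 2 lowest by less than 2-fold.

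Transcription factors of the list were Msx2, Id2, Tbx18, Shox2 and Isl1. Msx2, a target of bone morphogenetic protein signalling, read 10.99, 10.59, 11.28 and 11.24. Id2, an inhibitor of basic helix-loop-helix factors, read 14.73, 14.16, 14.88 and 14.97. Tbx18, a factor of the epicardium and sinus horn, read 11.46, 10.99, 11.34 and 11.07. Pool 2 was the lowest pool for all 3. Shox2, a factor of the sinus node and venous pole, read 8.94, 7.44, 8.85 and 8.71. Isl1, a factor of cardiac progenitors and pacemaker cells, read 7.45, 5.88, 7.30 and 7.90. Shox2 was 2.40-fold and Isl1 2.68-fold lower in pool 2 than in the lowest other pool. With Bmp4, they were the 3 of 18 genes of the list that passed 2-fold in that direction, against 0.195% of all genes. The call of Bmp4 depended on the scaling: with equal 75th percentiles it was 1.87-fold lower, while Shox2 and Isl1 were 2.14-fold and 2.35-fold lower. With normexp Bmp4 was 1.95-fold and Isl1 1.85-fold lower.

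Genes of electrical function were present as well. Hcn4, the pacemaker current channel, read 7.13, 7.03, 7.34 and 7.43. Cacna1g, a T-type calcium channel, read 8.90, 9.0, 8.44 and 8.41, and Cacna1d, an L-type calcium channel of pacemaker tissue, read 9.13, 8.57, 9.16 and 8.77. For Cacna1g pools 1 and 2 lay above pools 3 and 4, by 1.41-fold at most within pools 1, 3 and 4. Gjc1, the slow connexin 45 of the canal and nodes, read 13.46, 13.24, 13.68 and 13.53. Popdc2, a cyclic AMP binding membrane protein of conduction tissue, read 14.65, 14.13, 14.65 and 14.53. Cpne5, a calcium-dependent membrane binding protein, read 14.21, 13.69, 14.35 and 14.21. Cntn2, a cell adhesion molecule of the later conduction system, was the undetected member: it read 4.00, 4.21, 4.97 and 5.32 and was not well above background in pool 1.

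Genes of working myocardium were detected to the same extent. All 25 genes of the sarcomere list passed 128 in every pool, all 17 cardiac transcription factors did, and 15 of 16 chamber genes, 12 of 12 atrial genes and 10 of 10 ventricular genes were detected. Myl4, the atrial essential light chain, read 16.49, 15.92, 16.31 and 16.54, Tpm1, the alpha tropomyosin, 16.40, 15.64, 16.10 and 16.35, and Mybpc3, the cardiac myosin binding protein, 16.42, 16.12, 16.40 and 16.61. Pool 2 was the lowest pool in each. Nkx2-5, the homeodomain factor of heart muscle, read 14.11, 13.82, 14.22 and 14.18. Gata6, a zinc finger factor of heart muscle and endocardium, read 14.15, 13.70, 14.28 and 14.30. Tbx20 read 13.09, 12.71, 13.04 and 13.05, and Srf, a regulator of muscle genes, 13.30, 13.03, 13.31 and 13.14.

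The chamber list holds genes that Tbx2 and Tbx3 are known to repress in the canal. Nppa, the atrial natriuretic peptide gene, read 15.11, 14.59, 14.81 and 14.64. Gja5, the fast connexin 40, read 12.71, 12.23, 12.96 and 12.85. Both were well above background in all 4 pools, so chamber transcripts were measured in the dissected canal too. Smpx, a small muscle protein of the chambers, read 14.59, 14.13, 14.26 and 14.16, Fhl2, a LIM domain protein, 15.67, 15.20, 15.55 and 15.48, and Cited1, a transcriptional co-regulator, 13.64, 13.08, 14.07 and 13.59. Irx3, a homeobox gene of the ventricular conduction system, was well above background in pool 3 (4.95) and sat at the floor of 4.00 in the other pools. In bulk tissue, fewer cells of a type and less RNA per cell cannot be told apart, here and for every list below.

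Genes of both chambers were present. Tbx5, a T-box activator of atrium and left ventricle, read 12.94, 12.45, 12.97 and 12.97, and Nr2f2, an atrial nuclear receptor, read 13.13, 12.84, 12.86 and 13.07. Pam, a peptide processing enzyme of atrial granules, read 11.53, 11.42, 11.77 and 12.35, which is 1.77-fold between the lowest and highest of pools 1, 3 and 4. A second Pam probe read 10.65, 10.28, 10.78 and 10.85, a narrower span. Stard10, a lipid transfer protein, read 12.95, 12.51, 12.58 and 12.66. Among ventricular genes, Myl2, the ventricular regulatory light chain, read 15.77, 15.69, 15.52 and 15.76, and Irx4, a ventricular homeobox factor, 11.99, 11.28, 12.33 and 12.15. Mpped2 read 12.56, 11.88, 12.31 and 11.84. Gpx3, a secreted glutathione peroxidase, read 13.27, 14.69, 13.42 and 13.30 and was 2.42-fold higher in pool 2 than in the next pool.

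The ion channel and calcium handling list had 25 of 26 genes detected (96.2%, against 73.3% of all genes). Past the signal of 128 were 18 (69.2%, against 57.9%). Atp2a2, the calcium pump of the sarcoplasmic reticulum, read 15.60, 14.85, 15.16 and 14.97. Pool 1 was its highest pool, 1.54-fold over the lowest of pools 3 and 4. Kcnd3, a transient outward potassium channel, was not well above background in pool 1 (4.00) and read 4.36, 4.77 and 4.83 in the other pools.

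The lining and the cushions were represented by every member of their lists. All 30 endocardial and endothelial genes were detected, and 29 passed 128, against 73.3% and 57.9% of all genes. Klf2, a flow-responsive factor, read 15.13, 14.02, 15.25 and 15.16. Ramp2, an adrenomedullin receptor partner, read 14.62, 14.40, 14.59 and 14.60. Icam2, an adhesion molecule, read 13.03, 12.57, 13.02 and 12.90, and Cd34, a sialomucin of endothelium and progenitors, 13.90, 14.37, 13.95 and 13.79. In pools 1, 3 and 4 these 4 genes spanned 1.02-fold to 1.11-fold. Klf2 was 2.16-fold lower in pool 2 than in the lowest other pool, and it was the 1 endocardial gene of 30 past 2-fold in either direction there. Over all genes 4.58% passed 2-fold above and 0.195% below in pool 2, so this count is not read as a trait of the list. A second Klf2 probe, well above background in every pool, read 13.48, 13.52, 13.69 and 13.75, so the difference rests on 1 of 2 probes. With the mean of both probes Klf2 was 1.44-fold lower in pool 2. Cd34 was highest in pool 2.

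All 30 cushion mesenchyme genes were detected, and 29 passed 128, against 73.3% and 57.9% of all genes. Vim, the intermediate filament of mesenchyme, read 16.24, 15.94, 16.06 and 16.13, and Mdk, the growth factor midkine, read 14.85, 14.43, 14.85 and 14.96. Sox9, a factor of valve and cartilage progenitors, read 12.69, 12.64, 13.20 and 13.34, and Twist1, a mesenchymal factor, read 13.07, 12.79, 13.34 and 13.09. Both were chosen for the text after their values had been seen, as were all genes below that lie outside the naming rule. Prrx1, a mesenchymal homeobox gene, read 7.42, 8.54, 8.47 and 8.16, so pool 1 was the lowest, 2.07-fold below pool 3. 5 fibrous matrix genes of the list, Col1a1, Col1a2, Col3a1, Lum and Dcn, were at least 2-fold above every other pool in pool 2. Over all genes that share was 4.58%. Col1a1, a chain of type I collagen, read 14.72, 17.26, 14.55 and 14.42, a 5.80-fold difference from the next pool. Col3a1, the type III chain, read 14.42, 16.31, 14.40 and 14.54. Over pools 1, 3 and 4 Col1a1 spanned 1.24-fold and Col3a1 1.1-fold.

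The epicardial list was complete, with 16 of 16 genes detected and 15 past 128, against 73.3% and 57.9% of all genes. Krt18 and Krt8, keratins of simple epithelia and mesothelium, read 13.84, 13.74, 13.35 and 13.43, and 12.99, 12.84, 12.58 and 12.77. Upk3b, a mesothelial uroplakin, read 12.25, 11.54, 12.29 and 12.09. Lrp2, an endocytic receptor, read 8.88, 8.15, 7.96 and 7.78 and was highest in pool 1, 2.14-fold over pool 4. A second Lrp2 probe read 8.37, 7.81, 7.82 and 7.84, also highest in pool 1. Aldh1a2, the enzyme that makes retinoic acid, read 12.16, 13.18, 11.69 and 11.76, and was 2.03-fold higher in pool 2 than in the next pool.

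The signals that pattern the canal were measured as pathways. In the bone morphogenetic protein list 24 of 25 genes were detected (96%, against 73.3% of all genes) and 19 passed 128 (76%, against 57.9%). The targets Id2 (above) and Id1 and the effectors Smad4 and Smad5 were among them. Id1 read 13.81, 13.73, 14.00 and 13.82, Smad4 13.98, 13.66, 13.95 and 13.93, and Smad5 13.32, 13.07, 13.34 and 13.33. The receptor gene Bmpr1a read 12.30, 12.02, 12.13 and 12.05. Grem1, a secreted antagonist, was well above background in pool 4 (4.75) and at the floor elsewhere. Another antagonist, Fst (follistatin), read 7.79, 11.62, 7.98 and 8.16 and was 11-fold higher in pool 2 than in the next pool.

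All 14 genes of the transforming growth factor beta list were detected, against 73.3% of all genes. Tgfbr1, the signalling receptor, read 12.43, 11.92, 12.37 and 12.23, and Tgfbi, an induced matrix protein, 13.40, 13.30, 13.64 and 13.58. Smad2, the effector, read 11.60, 11.40, 11.54 and 11.55. Tgfbr2, the ligand binding receptor, read 11.25, 13.97, 11.48 and 11.43 and was 5.6-fold higher in pool 2 than in the next pool. Acvrl1 and Ltbp3 also passed 2-fold in pool 2, so 3 of 14 genes did, against 4.58% of all genes. In the Notch list 15 of 16 genes were detected, against the same 73.3%. Hey1, a Notch target of atrial and endocardial cells, read 13.86, 13.23, 13.34 and 13.16, Jag1, a ligand, 12.20, 11.94, 12.21 and 12.21, Notch3 11.16, 10.95, 11.15 and 11.21, and Rbpj, the DNA binding partner, 10.82, 10.97, 10.97 and 11.01. Lfng, which modifies the receptors, was above background in pool 2 (4.22) and at the floor elsewhere. No Notch gene passed 2-fold in any pool. The largest such share over all genes was 4.58%, above in pool 2, so none among 16 genes is near that share.

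In the neuregulin and epidermal growth factor receptor list 10 of 12 genes were detected (83.3%, against 73.3% of all genes). Past the signal of 128 were 7 (58.3%), near the 57.9% of all genes. Has2, the hyaluronan synthase that swells the cushion, read 13.36, 12.95, 13.24 and 13.31. The receptors Erbb2 and Erbb3 read 11.90, 11.57, 12.04 and 11.87, and 11.55, 11.53, 11.86 and 11.63. Hbegf, a ligand that limits valve growth, read 10.68, 10.18, 10.83 and 10.60. The ligand genes Areg and Btc were not detected by the 4-pool rule: Areg missed it in pool 2, at 4.24, and Btc in pools 3 and 4. Ereg, another such ligand, read 4.13, 5.05, 4.97 and 5.32. All 23 Wnt genes were detected. Wnt2, a ligand of the venous pole, read 14.21, 13.10, 13.95 and 13.83, Ctnnb1, beta-catenin, 14.33, 14.13, 14.38 and 14.36, Lef1, its nuclear partner, 12.42, 12.21, 12.82 and 12.73, and the receptor Fzd1 12.80, 13.56, 13.04 and 12.90.

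Growth and metabolism were detected in full. All 22 proliferation genes passed 128, against 57.9% of all genes. Mki67 read 14.87, 15.02, 15.20 and 15.44, Pcna 15.01, 14.64, 15.09 and 15.07, Mcm6 15.23, 15.09, 15.45 and 15.40, and Birc5, survivin, 15.42, 15.17, 15.45 and 15.43. Among cell cycle brakes 6 of 7 were detected, against 73.3% of all genes. Cdkn1c, the imprinted inhibitor p57, read 15.60, 15.02, 15.51 and 15.63, and Cdkn2d, p19, 13.21, 13.17, 13.49 and 13.48. Cdkn1b, p27, read 10.55, 10.73, 10.62 and 10.57, and Cdkn2c, p18, 9.69, 10.67, 10.19 and 10.40. Cdkn2a, a gene of senescence and tumour suppression, was at the floor of 4.00 in every pool. All 23 glycolysis and hypoxia genes passed 128, among them the glycolytic enzyme genes Aldoa, Ldha and Tpi1. Slc2a1, the glucose transporter of embryonic tissue, read 15.68, 15.64, 15.71 and 15.69, a span of 1.02-fold in pools 1, 3 and 4. Aldoa read 16.19, 16.26, 16.32 and 16.57, and Tpi1 15.49, 14.99, 15.44 and 15.57. All 21 early response and heat shock genes were detected. Hspa8 read 16.18 in pool 1 and 15.59 in pool 2, its highest and lowest pools, Hsp90aa1 15.91, 15.75, 15.99 and 15.83, Dnajb1 14.61, 14.34, 14.65 and 14.66, and Hspb1 14.11, 13.75, 14.18 and 14.11. Egr2, an early response factor, read 5.87, 10.65, 6.02 and 5.98, a 24.8-fold difference between pool 2 and the next pool.

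Lists of tissues next to the canal or far from it held fewer genes past 128. The outflow and second heart field list had 9 of 11 genes detected (81.8%, against 73.3% of all genes) but 4 past 128 (36.4%, against 57.9%). Foxc1 and Foxc2, forkhead factors of head and pharyngeal mesoderm, read 12.43, 11.90, 12.43 and 12.47, and 12.28, 11.92, 12.18 and 12.03. Wnt11 read 10.44, 10.01, 10.61 and 10.58, and Nkx2-6 8.52, 8.02, 8.56 and 8.63. Hoxb1 was above background in pool 4 alone (4.80), and Six2 in none. The neural crest and neural list had 15 of 18 genes detected (83.3%) and 8 past 128 (44.4%). Ets1, also an endothelial factor, read 11.91, 11.80, 11.98 and 11.99, Ednrb, an endothelin receptor, 10.72, 10.43, 10.78 and 10.99, and Tubb3, a neuronal tubulin, 10.47, 10.40, 10.86 and 10.61.

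The liver, foregut and yolk sac list had 9 of 18 genes detected (50%, against 73.3% of all genes) and 4 past 128 (22.2%, against 57.9%). Afp, fetal alpha-fetoprotein, read 9.65, 10.58, 9.57 and 8.84, Trf, transferrin, 8.64, 8.98, 8.99 and 8.85, Rbp4 8.66, 9.54, 8.92 and 8.54, and Amn, a visceral endoderm gene, 8.41, 8.68, 8.38 and 8.25. Apoa1, an apolipoprotein of liver and yolk sac, was not above background in any pool, and Alb, albumin, was above it in pool 2 alone (5.86), at least 3.64-fold over the others. Cdh1, epithelial cadherin, read 6.0, 8.39, 4.74 and 4.63, and Sox2 read 5.66, 6.24, 6.76 and 6.34. Genes of the retina, exocrine pancreas, sperm, skin, adult skeletal muscle and other organs that a heart should lack were kept as a reference for the detection flag itself. Of 29 such genes 14 were detected (48.3%), while 5 passed 128. Myh4, a fast myosin of adult skeletal muscle, gave 14.25, 13.48, 14.06 and 13.92, Lor, a skin barrier protein, 9.93, 9.32, 10.13 and 10.20, Krt10 9.25, 9.14, 9.69 and 9.76, and Cpa1 8.78, 7.92, 8.53 and 8.36. Second probes lay near the floor, at 4.21, 4.70, 4.00 and 4.00 for Myh4 and 4.56, 4.24, 4.91 and 4.83 for Krt10. Lct, the intestinal lactase, read 5.93, 5.45, 5.50 and 4.92, and Prm2, a sperm protamine, 4.18, 4.65, 5.03 and 5.44. Amy2a5, a pancreatic amylase, was above background in no pool and Akap4, a sperm protein, in pool 4 alone. A flag of detection at low signal thus does not by itself place a gene in the canal, and whether these probes bind related transcripts was not tested.

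**Figure D2:**
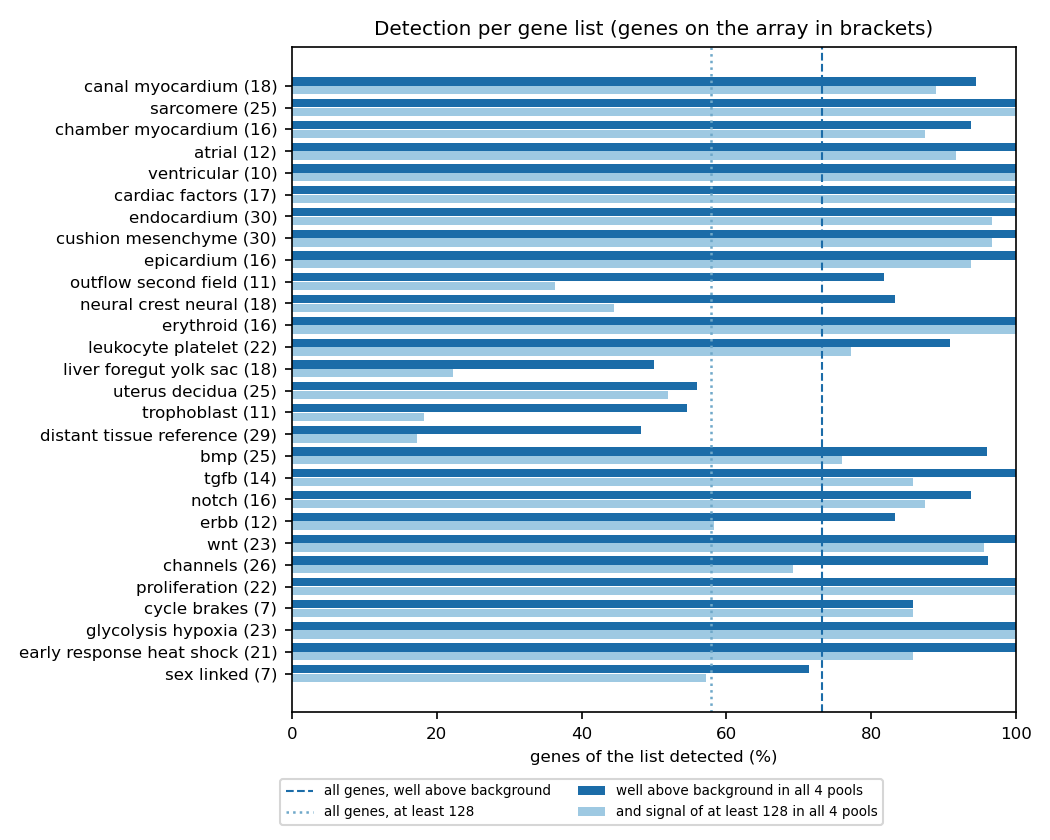
Share of each gene list that was well above background in all 4 control pools (dark bars) and that also had a signal of at least 128 in each (light bars), in percent, with the number of genes on the array in brackets. The dashed and dotted lines mark all genes (73.3% and 57.9%); the lists of heart muscle, endocardium, cushion and epicardium lie above both, and the distant tissue reference (48.3%) lies below.

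Spread between pools was small for most genes. The median SD per gene was 0.192 on the log2 scale over the 4 pools and 0.108 without pool 2, which corresponds to 1.14-fold and 1.08-fold. Leaving out pool 1, 3 or 4 in place of pool 2 gave 0.201, 0.207 and 0.205. The middle 80% of genes, from the tenth to the ninetieth percentile, had an SD of 0.0373 to 0.300 over pools 1, 3 and 4. The array prints 245 probes at 10 spots each, which gives the error of a single spot: over the 185 of them that were detected, the SD between spots of 1 probe on 1 array was 0.164 at the median. The means of those 10 spots had a median SD of 0.134 over pools 1, 3 and 4 and of 0.225 over all 4 pools. For most genes, which have 1 spot, the share of spot error in the spread between pools cannot be told apart from that of the tissue. In the mutant channel the same quantities over 14226 genes were 0.212 for 4 pools and 0.166 for mutant pools 1, 3 and 4. In the control channel they were 0.192 and 0.107 for the same genes. The dyes differ, so these spreads are given side by side.

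Few genes differed between pools 1, 3 and 4. In all, 291 of 14291 detected genes (2.04%) spanned more than 2-fold over those 3 pools. By pairs, 52 genes were at least 2-fold apart between pools 3 and 4, 121 between pools 1 and 3 and 233 between pools 1 and 4, against 654 to 708 for pairs with pool 2. A gap ratio, the distance of the outermost pool to its neighbour over the whole range, placed 1 pool apart by Dixon's limit for 4 values in 1557 of 14291 genes, or 10.9%. Pool 2 was the pool apart in 1394 of them, with 399 high and the rest low, pool 1 in 102, pool 4 in 43 and pool 3 in 18. Chance passes Dixon's limit in about 5% of groups of 4. The low count in pool 2 was not corrected for the shift of all detected genes there, -0.25 at the median. By size, 28 genes were at least 2-fold below every other pool in pool 2.

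Over all detected genes, pool 2 lay 0.25 below the mean of pools 1, 3 and 4 at the median, while pools 1, 3 and 4 deviated from it by -0.04, 0.03 and 0.01. Scaling to the 75th percentile reduced that shift of pool 2 to -0.09, so levels of lists in pool 2 are read against the shift. Several lists lay below it, of heart muscle and of other tissues. The canal myocardium list deviated by -0.49 at the median in pool 2, the sarcomere list by -0.48, the chamber list by -0.41, the atrial list by -0.44 and the ventricular list by -0.29. Relative to all genes that is -0.23 for canal myocardium, -0.23 for the sarcomere and -0.04 for the ventricular list. The outflow list and the distant tissue reference, genes that a heart should lack, lay further below, at -0.28 each relative to all genes. Levels below the shift in pool 2 were therefore not limited to the heart muscle lists. The endocardial list deviated by -0.25, as all genes did, and the cushion list by -0.18. Leukocyte and uterine lists were far above, at 1.89 and 1.00. In pools 1, 3 and 4 most lists stayed within 0.25 of the mean, and the erythroid list did not.

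**Figure D3:**
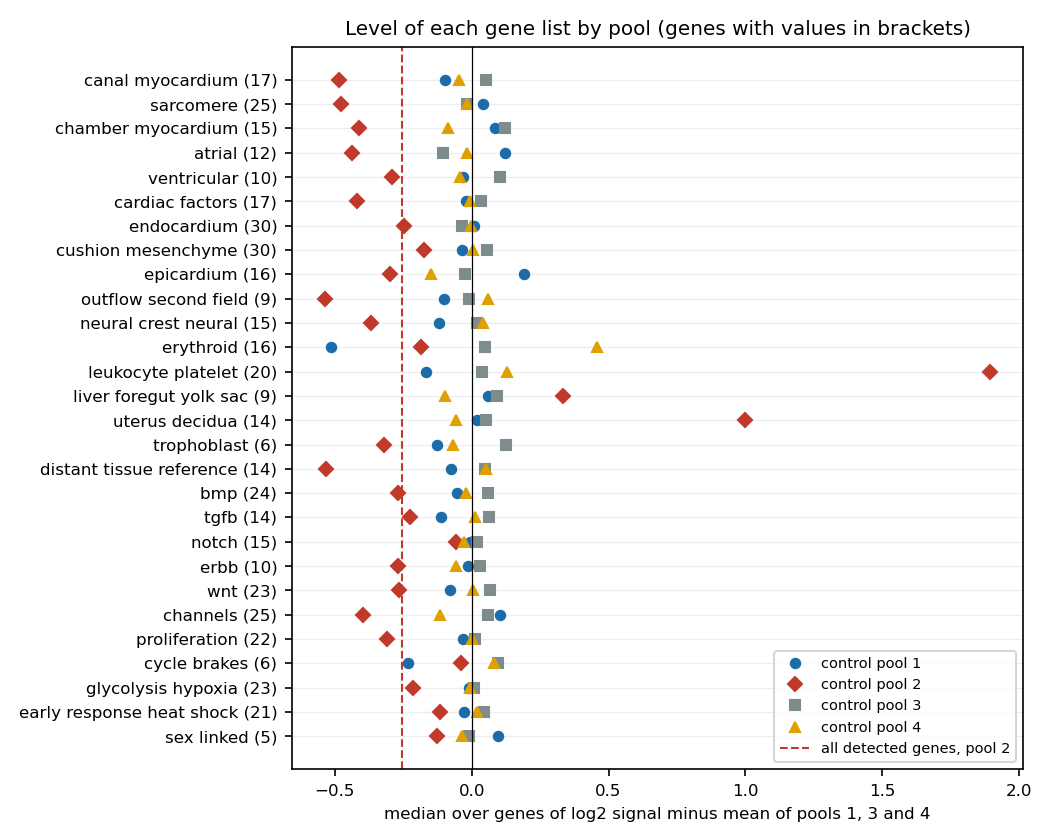
Median over the detected genes of each list of the log2 signal minus the mean of pools 1, 3 and 4, by pool, with the number of genes in brackets; the dashed line is the same median over all detected genes in pool 2 (-0.25). Heart muscle lists, the outflow list and the distant tissue reference lie left of that line in pool 2, the leukocyte (1.89) and uterus (1.00) lists lie far to the right, and the erythroid list spreads over pools 1, 3 and 4.

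The genes furthest above in pool 2 were low in the other pools. Dio3, the deiodinase that inactivates thyroid hormone and is abundant in the pregnant uterus, read 6.82, 16.10, 6.23 and 5.32, a 621-fold difference from the next pool. Penk, the precursor of enkephalin peptides, read 7.17, 16.76, 7.33 and 7.50, a 614-fold difference. Cxcl14, a chemokine, read 5.79, 14.51, 5.40 and 5.46. Of the 690 genes, 360 were at least 4-fold, 100 at least 16-fold and 30 at least 64-fold above every other pool, and 136 were well above background in pool 2 alone. A further 257 probes, of 215 of these genes, were well above background in pool 2, and 237 of them were highest in pool 2, 156 by 2-fold or more. Further probes that were not well above background in pool 2 were left out of this tally. The tally therefore leans toward pool 2 and is not independent support.

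Transcripts of the uterus and decidua were the first group. The decidua is the stroma of the uterus as it transforms around the implanted embryo. Of 25 genes of that list, 12 were at least 2-fold above every other pool in pool 2, against 4.58% of all genes. The list was written with the pattern known, so its count is a description. Hoxa10 and Hoxa11, homeobox genes of the uterus, read 4.40, 11.33, 4.32 and 4.00, and 5.76, 12.51, 4.12 and 4.00. Hoxa10 was 122-fold and Hoxa11 108-fold above the next pool. Emx2, a homeobox gene of the genital tract, read 8.93 in pool 2 and sat at the floor in the others, a difference of at least 30.5-fold. Pgr, the progesterone receptor, read 6.76 in pool 2 and was not above background elsewhere. Esr1, the oestrogen receptor, read 7.94, 10.77, 8.02 and 7.91. Mgp, a matrix protein of smooth muscle and cartilage, read 9.78, 14.34, 9.59 and 9.57. Dcn, the stromal proteoglycan decorin, read 11.56, 14.71, 11.26 and 11.22. Myh11, the smooth muscle myosin, read 7.93, 10.72, 7.33 and 7.31. Other smooth muscle genes of the list, which the heart tube also expresses, were not highest in pool 2 by 2-fold: Cnn1 read 15.57, 15.15, 15.64 and 15.66, Actg2 14.24, 13.94, 14.37 and 14.34, and Lmod1 11.03, 10.79, 10.57 and 10.48. Oxtr, the oxytocin receptor, was above background in no pool, and Cyp11a1, a steroid synthesis enzyme, read 5.42, 5.24 and 4.79 in pools 1 to 3 and was at the floor in pool 4.

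Other genes among the 20 furthest above in pool 2 were secreted or stromal. Sfrp4, a Wnt inhibitor of stroma, read 6.35, 14.22, 6.42 and 5.91, and Igfbp6, an insulin-like growth factor binding protein, 5.28, 12.62, 5.06 and 5.40. A2m, a protease inhibitor of the decidua, read 7.25, 14.44, 6.82 and 6.90. Wnt10a read 4.52, 11.23, 4.00 and 4.19, and Itgbl1 4.49, 11.16, 4.26 and 4.00. The complement proteases C1s1 and C1ra read 4.00, 11.27, 4.00 and 4.00, and 4.10, 11.39, 4.76 and 4.76. Ly6a and Ly6c1, surface proteins of endothelium and lymphocytes, read 4.64, 12.48, 4.00 and 4.00, and 6.89, 14.89, 6.77 and 6.09. Ifi27l2a, an interferon-induced gene, read 5.96, 12.86, 6.05 and 6.20. For all of these, no other pool came within 99-fold of pool 2.

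Genes of natural killer cells, the lymphocytes that populate the decidua, were the second group. Granzymes, killer lectin receptors, histocompatibility genes, collagens, prolactins and Hox genes were grouped by symbol after the values had been seen. Of 11 granzyme and perforin genes, 9 were at least 2-fold above in pool 2, against 4.58% of all genes. Gzmb, a cytotoxic protease, read 4.31, 12.85, 4.00 and 4.00, Gzma 4.52, 12.14, 4.00 and 4.00, and Prf1, perforin, 4.53, 11.24, 4.00 and 4.00. Il2rb, a receptor chain for interleukins 2 and 15, read 5.07, 11.73, 4.54 and 4.40. Of 26 killer lectin receptor genes, 14 passed 2-fold in pool 2, against the same 4.58%, and 15 of the 26 were above background in pool 2 alone. Klrg1 read 4.23, 10.40, 4.00 and 4.00, and Klrd1 read 8.77 in pool 2 and was at the floor elsewhere, a difference of at least 27.2-fold. The granzyme cluster is a set of close copies, and 2 members of it show why single copies are uncertain here. Capitals mark runs of at least 8 bases that the 60-base probes of the pair share in the same order, written 5′ to 3′ as the deposited files give them:
Gzmd probe: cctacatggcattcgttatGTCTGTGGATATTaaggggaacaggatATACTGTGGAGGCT
Gzme probe: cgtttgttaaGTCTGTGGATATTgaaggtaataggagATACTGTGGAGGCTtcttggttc
The probes lay at chr14:50998632-50998691 and chr14:50986691-50986750, both on the minus strand of mm7, and 27 of 60 bases lay in shared runs, the longest of 14. This Gzmd probe read 5.53, 11.95, 4.00 and 4.00 and the Gzme probe 4.00, 10.45, 4.00 and 4.00. A second Gzmd probe, the brighter one that stands for the gene, read 6.37, 13.01, 4.73 and 4.00. Pool 1 was above background for both Gzmd probes and not for Gzme.

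Leukocyte and antigen presentation genes came next. In the leukocyte and platelet list 14 of 22 genes were at least 2-fold above in pool 2, against 4.58% of all genes. Ptprc, the common leukocyte antigen, read 7.11, 10.78, 7.13 and 7.17, and C1qa, a complement gene of macrophages, 6.0, 9.22, 6.14 and 6.25. Lyz2, the macrophage lysozyme, read 12.57, 14.34, 13.06 and 12.91. Csf1r, the receptor of macrophage growth factor, read 8.07, 9.43, 8.25 and 8.39. Platelet genes did not follow: Pf4 read 13.41, 13.65, 14.04 and 14.01 and Gp9 10.61, 10.49, 11.18 and 11.10. Spi1, a myeloid factor, was at the floor in every pool. The summed linear signal of the list was 23998, 55781, 35255 and 34560 in pools 1 to 4. Of 36 histocompatibility genes, 18 passed 2-fold in pool 2, against the same 4.58%. H2-K1 and H2-D1, class I genes, read 10.80, 14.03, 10.86 and 11.01, and 9.22, 12.07, 9.45 and 9.76. These genes share sequence, so their number may count fewer transcripts.

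Collagens and Hox genes were the last group. Of 43 collagen chains, 13 passed 2-fold in pool 2, against 4.58% of all genes. Among them were Col15a1 at 4.42, 10.71, 4.51 and 5.16 and Col6a1 at 8.75, 10.99, 9.06 and 9.02. Col2a1, the cartilage and cushion collagen, read 12.75, 12.23, 12.67 and 12.86, and pool 2 was its lowest pool. Of 15 Hox genes of the paralogue groups 9 to 13, 5 passed 2-fold in pool 2, against the same 4.58%, and 8 were above background in no pool. Hoxd10 read 8.80 in pool 2 and was at the floor elsewhere. Of 23 Hox genes of groups 1 to 8, 16 were detected (69.6%, against 73.3% of all genes). Hoxb7, Hoxd4 and Hoxd8 were at least 2-fold above in pool 2. Hoxa2 and Hoxa5 were at least 2-fold below, against 0.195% of all genes.

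**Figure D4:**
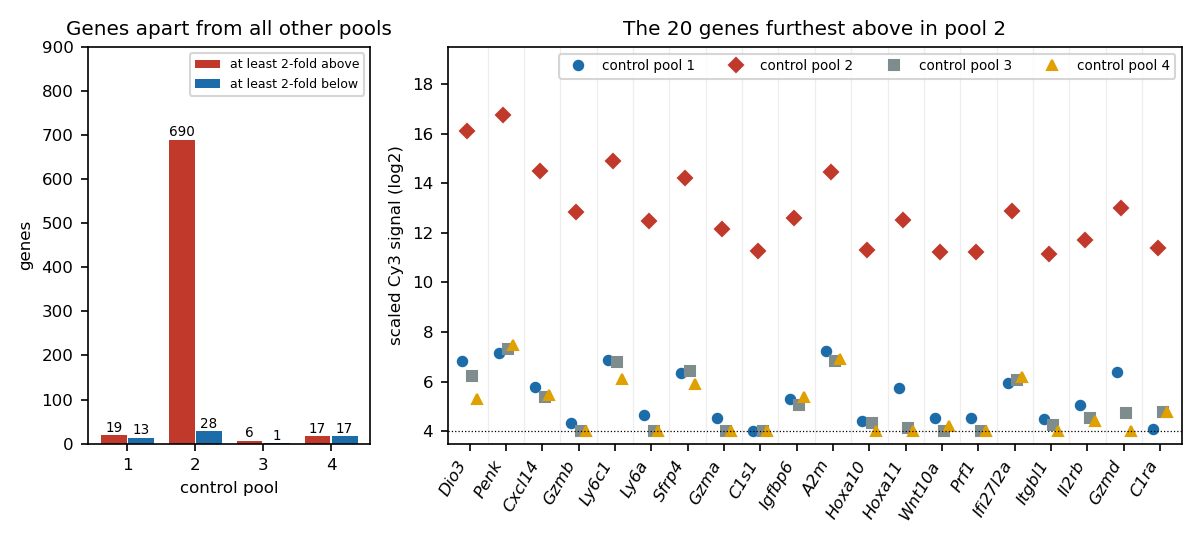
Left, number of genes at least 2-fold above (red) or below (blue) every other control pool, by pool. Right, scaled Cy3 signal on a log2 axis of the 20 genes furthest above in pool 2, with 1 symbol for each pool and a dotted line at the floor of 4; pool 2 lies above 11 for each gene and the other pools lie below 8.

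In the mutant pool on the second array a minority of these genes stood out as well. The Cy5 channel was scaled in itself, and pools were compared within it. Of the 690 genes, 101 (14.6%) were at least 2-fold above every other mutant pool in mutant pool 2, against 148 of 15655 genes (0.945%) over all genes, and 380 (55.1%) were highest there, against 19.9% of the genes well above background in control pool 2. Of the 690 genes, 52 were above background in no mutant pool. Dio3 read 6.98, 14.74, 8.49 and 5.39 in mutant pools 1 to 4, and Penk read 7.98, 13.04, 8.04 and 8.12. Gzmb read 5.57, 10.40, 5.79 and 4.00. Hoxa11 read 5.03, 8.80, 7.59 and 5.46, so mutant pools 3 and 2 both lay above the others. Ptprc did not follow, at 8.23, 7.67, 7.79 and 7.95. Both channels of an array are read from the same spots, and the part of this in the shared pattern was not tested.

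The 28 genes lower in pool 2 were led by Ccnb1ip1, a regulator of cyclin B and of meiotic crossing over, at 8.17, 4.68, 7.95 and 8.19, which is 9.70-fold below the lowest other pool. Slc4a7, a bicarbonate transporter, read 15.65, 13.48, 16.03 and 16.14. Rspo2 read 7.02, 5.26, 7.11 and 9.09, Shisa3 9.49, 6.78, 8.87 and 8.23, and Kcnip1 6.12, 4.68, 6.06 and 6.60. Tcra read 7.44, 5.73, 7.69 and 7.66, Ptprz1, a receptor phosphatase of glia, 17.22, 15.63, 17.30 and 17.76, and Cox17, a copper chaperone, 15.64, 14.25, 15.96 and 15.93. Pool 2 was the lowest pool in each by these probes, and Rspo2 was highest in pool 4. Second probes of these genes were counted by signal in the other pools, so their tally is not comparable with that of the genes above. Of 8 further probes of 6 of the 28 genes that were well above background in pools 1, 3 and 4, 5 were lowest in pool 2 and 2 were so by 2-fold. The second Cox17 probe read 14.42, 14.18, 14.68 and 14.69. Dim further Ptprz1 probes read 5.20, 5.16, 5.59 and 5.56, and 4.77, 5.03, 4.89 and 5.04, and another was at the floor in every pool. The bright Ptprz1 probe gave the highest signal of all probes in pools 1, 3 and 4. Whether that signal comes from Ptprz1 was not tested.

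Outside pool 2, the largest differences between pools were in placental prolactin-family genes. These hormones are made by trophoblast giant cells, the outermost cells of the mouse conceptus. Prl3d1, placental lactogen I, read 10.21, 8.39, 8.09 and 6.28, and Prl3d2 read 10.59, 8.35, 8.15 and 5.38. Prl3d2 spanned 36.9-fold and Prl3d1 15.3-fold over pools 1, 3 and 4. Prl4a1 read 9.39, 6.99, 5.65 and 4.65, and Prl7a1 8.54, 6.0, 6.28 and 4.48. In all of them pool 1 was highest and pool 4 lowest. Of 23 prolactin-family genes 8 were detected (34.8%, against 73.3% of all genes). In pool 1, 6 were at least 2-fold above every other pool, against 0.129% of all genes. The same 6 were at least 2-fold below in pool 4, against 0.119%. The remaining copies are near-identical. The probes of Prl2c3 and Prl2c5, proliferin genes, are printed to show how much sequence the pair shares, with capitals marking shared runs of at least 8 bases:
Prl2c3 probe: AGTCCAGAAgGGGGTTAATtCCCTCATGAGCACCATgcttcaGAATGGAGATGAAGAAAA
Prl2c5 probe: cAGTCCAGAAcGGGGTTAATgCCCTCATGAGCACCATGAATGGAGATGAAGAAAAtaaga
Of the 60 bases 52 lay in shared runs, the longest of 18, and the files place both on unassigned sequence of mm7, at chrUn_random:1011041-1011975 and chrUn_random:1535003-1535062 on the plus strand. Prl2c3 read 9.89, 8.50, 8.03 and 5.90, and Prl2c5 read 10.73, 9.12, 8.85 and 6.56, the same order of pools. Other trophoblast genes were mixed. Ctsj and Ctsq, placental cathepsins, were at the floor in every pool, where no order can be seen. Plac1 read 8.82, 8.51, 9.11 and 9.04, and Hand1, also a gene of the left ventricle, 10.65, 10.43, 10.86 and 10.68. Prl3b1, placental lactogen II, read 6.28, 6.53, 7.55 and 6.79. Prl8a2, a prolactin of decidual cells, read 7.90, 9.65, 7.73 and 8.03 and followed pool 2. In the mutant channel Prl3d1 read 9.15, 8.10, 10.95 and 7.05, and Prl2c5 read 9.78, 8.57, 11.94 and 7.18, highest in mutant pool 3 and lowest in mutant pool 4.

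Rhox9 and Rhox6, X-linked homeobox genes of placenta and germ line, had the order of the prolactins, at 8.63, 7.75, 7.18 and 5.61, and 7.60, 6.90, 6.30 and 5.24. Both were at least 2-fold below every other pool in pool 4. Prap1, a gene of uterine and gut epithelium, read 9.93, 11.49, 10.73 and 8.27. Calcr, the calcitonin receptor, read 8.33, 6.47, 5.58 and 6.95, and was highest in pool 1. A second, dim Calcr probe read 4.29, 4.00, 4.23 and 4.58 and did not have pool 1 highest. Npsr1, a neuropeptide receptor, ran the other way, at 8.12, 8.35, 10.11 and 11.43, a span of 9.89-fold over pools 1, 3 and 4. The other Npsr1 probes were at the floor in every pool, so that span rests on a single probe. Rhox9, Prap1, Calcr and Npsr1 and 6 prolactins were the 10 genes with the widest span.

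Blood differed between pools as a group. All 16 erythroid genes were detected, and the median of the list deviated by -0.52, -0.18, 0.05 and 0.46 in pools 1 to 4, against -0.04, -0.25, 0.03 and 0.01 for all genes. Relative to all genes the list stood at -0.48 in pool 1 and 0.45 in pool 4. Each value depended on the other pool, being -0.23 in pool 1 without pool 4 and 0.20 in pool 4 without pool 1. Hbb-y, the embryonic epsilon globin, read 15.51, 16.13, 17.22 and 17.22, Hbb-bh1 15.59, 16.48, 17.13 and 17.08, Hba-x, embryonic zeta globin, 15.53, 15.78, 16.85 and 16.93, and Hba-a1, alpha globin, 15.46, 16.04, 16.78 and 17.12. Each was lowest in pool 1, by 2.63-fold to 3.28-fold within pools 1, 3 and 4. Klf1, the erythroid Krüppel-like factor, read 12.40, 12.94, 13.27 and 13.58, and Ermap, an erythroid membrane protein, 10.94, 11.26, 11.39 and 12.05. Globin genes share sequence, and Klf1 and Ermap, which do not belong to that family, were also lowest in pool 1 and were highest in pool 4. Mpo, the myeloperoxidase of myeloid progenitors, read 9.66, 10.13, 11.12 and 11.31, and Cx3cr1 was not above background in pool 1 and read 5.61, 5.29 and 5.72 in the others.

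Some developmental regulators were among the genes at least 2-fold above every other pool in pool 1 or pool 4. Both sets also held genes of other kinds, such as prolactins and Ctrc in pool 1 and Cxcl13 in pool 4. In pool 4, Rspo2 (values above), Osr1, Gcg and Nkx6-1 were among the 17 genes at least 2-fold above. Second probes of Osr1 and Gcg were also highest in pool 4, while a second Rspo2 probe was at the floor in every pool. Osr1, a factor of second heart field and foregut mesoderm, read 8.88, 8.17, 8.89 and 9.99. Gcg, the glucagon gene of pancreas and gut, read 6.80 in pool 4 and was not above background elsewhere, a difference of at least 5.33-fold. Nkx6-1, a factor of pancreas and neural tube, read 5.10, 4.57, 5.30 and 6.77. In pool 1, Gsc and Alx4, homeobox genes of craniofacial mesenchyme, were among the 19: Gsc read 7.81, 4.68, 6.04 and 5.39, and Alx4 7.33, 6.11, 6.0 and 5.39. A second, dim Alx4 probe read 4.54, 5.17, 5.30 and 5.81, the opposite order. Most of these signals were low, and none of those named here belonged to a list of heart cell types.

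**Figure D5:**
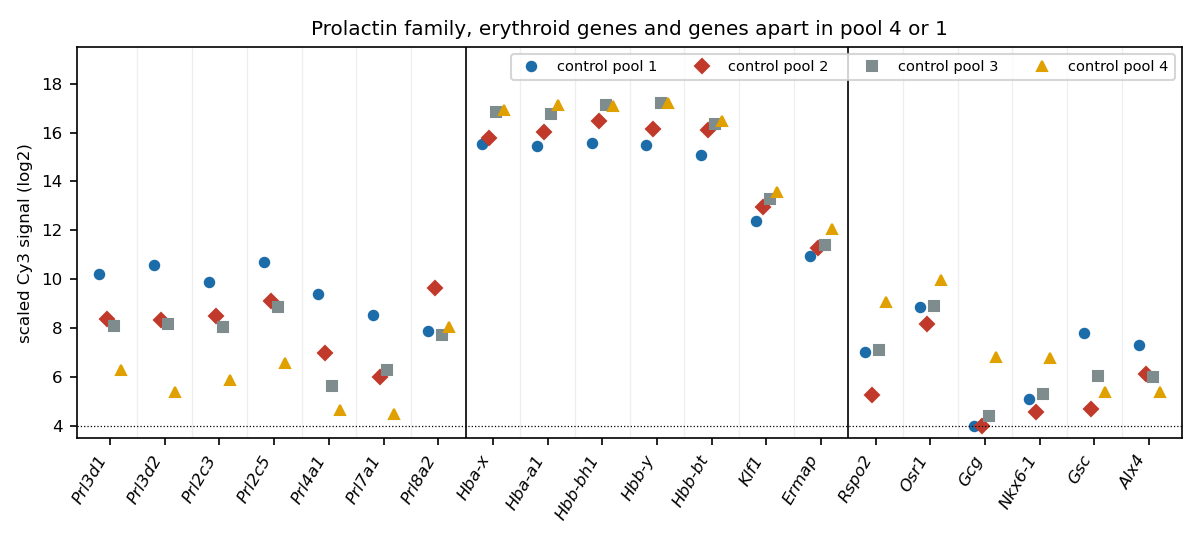
Scaled Cy3 signal on a log2 axis, with 1 symbol per control pool, for prolactin-family genes (left), erythroid genes (middle) and genes apart in pool 4 or pool 1 (right). The prolactin genes other than Prl8a2 run from pool 1 (highest) to pool 4 (lowest), Prl8a2 is highest in pool 2, and the erythroid genes are lowest in pool 1.

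Sex-linked genes showed that every pool held RNA of both sexes. Xist, the RNA that silences 1 X chromosome in female cells, read 11.25, 11.69, 11.37 and 10.79. The Y-linked genes Eif2s3y, Ddx3y, Kdm5d and Uty read 11.60, 11.50, 11.71 and 11.60, then 10.39, 10.07, 10.29 and 10.36, then 8.41, 8.17, 8.29 and 8.19, and last 6.11, 6.12, 5.90 and 6.05. The Y-linked genes spanned 1.07-fold to 1.16-fold over pools 1, 3 and 4, and Xist spanned 1.5-fold, with pool 4 lowest. Usp9y was at the floor in every pool, and Tsix, the antisense partner of Xist, was above background in pools 1 and 3.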

How the data were processed

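The authors deposited the scanner output of each array, made with Agilent Feature Extraction 9.5.1 per the submitters' processing notes, for 60-base probes. The deposited intensity columns used were the mean spot signal and the median local background of each channel; the processed signal served as an alternative. Per array, background was subtracted, non-control spots were scaled to an equal median, floored at 16, log2 transformed and averaged over the spots of a probe. Non-uniform spots were left out. Of 41174 probes, 32737 were named through RefSeq (accession, symbol or unique synonym) as 19512 genes; the probe with the highest mean signal stood for its gene. The 4 control pools form 1 group, so nothing was tested: values, folds and spreads are descriptions. A fold against pools below background is given as at least N-fold, against the lowest signal well above background. The members and the 28 lists were chosen with earlier results of these data known. Named genes were the 7 markers, all canal myocardium genes, up to 4 detected and 2 undetected genes per list, list genes spanning over 2-fold in pools 1, 3 and 4, the 20 genes furthest above and 10 furthest below in pool 2, the 10 with the widest span in pools 1, 3 and 4, and the sex-linked genes; a few of these are not reported here. The calls were tested on simulated data, and all values were recomputed under the alternatives of the closing section (Python 3.11.15, numpy 2.4.6, pandas 2.3.3; normexp with limma 3.58.1 in R 4.3.3). The deposited series table of mutant over control ratios was not used here.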

Additional observations from a re-analysis of the deposited data

Results flagged for a closer look

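A pool was singled out where its distance to the nearest other pool was so large a part of the range of the 4 pools that it passed Dixon's limit, which chance passes in about 1 in 20 groups of 4. The differences are log2, the pool minus the mean of the other 3. That rate does not apply to genes named for their distance in pool 2, because the same values picked them. It also does not apply where the other pools sat at the floor, as for C1s1, Emx2, Alb, Grem1 and Hoxb1. Pool 2 was the pool apart in almost every case, which the choice of genes in part fixed in advance. Among genes furthest above in pool 2 the differences were 9.98 for Dio3, 9.43 for Penk, 8.96 for Cxcl14, 8.75 for Gzmb, 8.3 for Ly6c1, 8.26 for Ly6a, 7.99 for Sfrp4 and 7.97 for Gzma. They were 7.45 for A2m, 7.37 for Igfbp6, 7.27 for C1s1, 7.09 for Hoxa10, 7.06 for Il2rb, 7.06 for Prf1, 6.99 for Wnt10a, 6.9 for Itgbl1, 6.85 for C1ra and 6.79 for Ifi27l2a. List genes above in pool 2 were Emx2 at 4.93, Dcn at 3.36, Col1a1 at 2.7, Col3a1 at 1.86, Alb at 1.86, Gpx3 at 1.36 and Lfng at 0.217.

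Below in pool 2 were Ccnb1ip1 at -3.43, Tcra at -1.87, Shox2 at -1.39, Klf2 at -1.16 and Bmp4 at -1.14. A second Klf2 probe, at 13.48, 13.52, 13.69 and 13.75 in pools 1 to 4, did not show it. Smaller differences were -0.546 for Foxc1, -0.506 for Tbx5, -0.346 for Tbx20, -0.301 for Dnajb1, -0.287 for Smad4, -0.269 for Jag1, -0.258 for Birc5, -0.256 for Smad5 and -0.2 for Ramp2. All detected genes had a shift of -0.25 in pool 2 at the median, and Foxc1 and Tbx5 lay well below it. The lists apart in pool 2 deviated from the mean of pools 1, 3 and 4 by 1.89 for leukocytes and platelets, 0.999 for uterus and decidua, -0.479 for the sarcomere, -0.418 for cardiac factors, -0.31 for proliferation, -0.247 for endocardium and -0.213 for glycolysis and hypoxia. In other pools the genes apart were near the floor: Hoxb1 at 0.798 and Grem1 at 0.747 in pool 4, and Irx3 at 0.951 in pool 3. No explanation of these differences was tested.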

How the results depend on the processing

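No paired analysis was made. Each control pool shares its array with a mutant pool, but the 4 control pools were described as a single group and not compared with the mutant pools. Detection gave 14285 to 14683 genes under the other flag rules and 14337 to 14458 with 1 pool left out. Counts of genes past 2-fold were the least stable. With normexp and offset 50, pools 1, 3 and 4 had 8, 0 and 4 genes above, and pools 1, 2 and 4 had 2, 14 and 7 below. With a floor of 64 these were 10, 0 and 5 above, and 3, 17 and 9 below. Equal 75th percentiles and equal medians over detected probes each gave 20, 18 and 4 genes below in pools 1, 2 and 3. The processed signal gave 3 and quantile normalization 2 below in pool 3. Genes above in pool 2 numbered 507 to 793 under the 8 settings that keep all pools. With 1 pool left out, fewer pools had to be passed: the counts above were 24 to 39 in pool 1, 10 to 31 in pool 3 and 23 to 86 in pool 4, and those below were 21 to 78, 33 to 68, 5 to 10 and 21 to 33 in pools 1 to 4. The median SD was 0.108 to 0.207 over the remaining control pools, and 0.0666 to 0.108 among pools 1, 3 and 4, the lowest without pool 1. Relative to all genes in pool 2, the cushion list stood at 0.107 with the processed signal, 0.0614 with normexp, 0.0483 with a floor of 64 and 0.123 with quantile normalization, and at 0.068 to 0.134 with 1 pool left out, against 0.0777. The leukocyte and uterus lists stood at 1.80 and 1.1 with normexp, against 2.15 and 1.25. Of the named genes detected in every pool, 33 lay at least 2-fold from the mean of pools 1, 3 and 4 in pool 2. They kept their sign in all 363 recalculations, but were picked for a large difference, so a turned sign was unlikely from the start. Over all 162 named genes with values, the sign turned in 98 of 1782 recalculations. By size, 341 of these moved by more than the gene's SD over pools 1, 3 and 4. The count of 101 genes in mutant pool 2 ranged from 81 to 123; its alternatives and the signal of 128 were chosen after seeing the data. Signal near background limits the low genes, where a difference of 2-fold lies close to the floor.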

Other observations

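Several genes of secretory and reproductive tissue combined both patterns, with pool 2 highest and pool 4 lowest, and were chosen after their values had been seen. Spp1, the secreted phosphoprotein osteopontin, read 8.93, 15.32, 8.50 and 7.09 in control pools 1 to 4, and 9.04, 9.75, 11.25 and 8.98 in the mutant pools. Akr1c18, the enzyme that breaks down progesterone, read 5.72, 11.82, 5.78 and 4.46, and Aoc1, a diamine oxidase, 6.15, 11.33, 6.86 and 5.09. All 3 were at least 2-fold below every other control pool in pool 4. Mt2, a metallothionein, was at least 2-fold below in pool 1, at 14.19 against 15.89, 15.63 and 15.80 in pools 2 to 4.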
